A study of Drosophila melanogaster with 12 samples.

Results

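The genes described here are peptide precursor genes of *Drosophila melanogaster*, which encode the neuropeptides and peptide hormones that neurons and endocrine cells release. They were taken from a list of 32 gene symbols, and a gene was included where the array annotation maps a probe set to that gene alone. By this rule 26 of the 32 genes were measured, each by 1 probe set, out of 18769 probe sets that are not array controls. *AstA*, *Dsk*, *Hug*, *Tk*, *Pburs* and *Gpa2* were not matched to a probe set and were not analysed here. The values come from Affymetrix Drosophila Genome 2.0 arrays, and they measure precursor transcripts, not the peptides.

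A peptide precursor enters the secretory pathway in the endoplasmic reticulum, is cut by proprotein convertases and is often amidated before the finished peptide is released from dense core vesicles onto G protein-coupled receptors. Most of the precursors are made by small numbers of neurons in the brain and the ventral nerve cord, which lies in the thorax, and some are also made by endocrine cells of the midgut or by gland cells along the tracheae. Between them the peptides control feeding, energy stores, water balance, gut and heart contraction, daily rhythms and moulting.

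The study compared females carrying 2 mutant alleles of *loj* (logjam), *loj* 00898/*loj* 04026, with heterozygous controls, each control sample combining 6 *loj* 00898/+ and 6 *loj* 04026/+ females. *loj* encodes a p24 protein, one of a family that carries cargo between the endoplasmic reticulum and the Golgi. Every group therefore held at least 1 mutant *loj* allele, and the mutant combination is described by the study as strongly hypomorphic and probably null. Females were 4 days old, had each mated with a wild-type male, and were cut into abdomen and head/thorax 3 hours after mating. There were 3 samples of each of the 4 groups (control abdomen, *loj* abdomen, control head/thorax and *loj* head/thorax), each an RNA extraction from 12 females hybridized to 1 array, so all animals of a sample were pooled. The *loj* probe set read 921 to 1220 on the 6 control arrays and 30.9 to 43.2 on the 6 *loj* arrays.

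Each value is the linear intensity of a probe set, and levels of different probe sets are not comparable with each other. The background level of an array was set at the 95th percentile of its 27 *Bacillus subtilis* control probe sets. It was 76.8 to 131 on abdomen arrays (91.2 to 131 in control and 76.8 to 108 in *loj*). On head/thorax arrays it was 126 to 256 (206 to 256 in control and 126 to 236 in *loj*). The median probe set read 93.4 to 102 on abdomen arrays and 145 to 160 on head/thorax arrays. The tissues were as labelled by most markers, since 5 of 6 ovary genes were above background on every abdomen array and 0 of 6 on any head/thorax array, while 3 of 3 photoreceptor genes were above it on every head/thorax array and 0 of 3 on any abdomen array. Among the ovary genes the exception was *nos*, at background in both tissues. It read 124 to 131 in control head/thorax against 1.97 to 3.24 in control abdomen. It was called higher in head/thorax in both genotypes (log2 5.72 in controls and 5.29 in *loj*). Of 3 Malpighian tubule markers 1 (*bw*) was called higher in head/thorax and 1 (*salt*) higher in abdomen. Of 4 fat body markers 1 (*Lsp2*) was called higher in head/thorax and 0 higher in abdomen. Of 4 neuron markers, 0 were above background on all 3 arrays of either abdomen group. In head/thorax only 2 of the 4 were above it on all 3 arrays of each genotype. Of 2 genes matched from a list of enteroendocrine markers, *pros* read 17.2 to 28.8 on abdomen arrays against 618 to 955 on head/thorax arrays. The other, *Poxn*, was at background on every array. Which cells gave the *pros* signal was not tested. Of 5 gut genes 2 (*Jon99Fi* and *Jon25Bii*) were called higher in control abdomen and 0 higher in head/thorax. Yet 4 of the 5 were above background on all 3 head/thorax arrays of each genotype. Of these *alphaTry* read 13708 to 14797 in control head/thorax and 13117 to 13478 in control abdomen. Gut transcripts were thus measured in both tissues.

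Peptide precursor transcripts were found above background mainly in head/thorax. All 3 arrays were above background for 17 of the 26 genes in control head/thorax and for 19 in *loj* head/thorax, against 3 in control abdomen and 6 in *loj* abdomen. The genes counted in *loj* abdomen only were *ETH*, *Ms* and *Nplp4*. Their means were 143, 103 and 110 in control abdomen and 117, 108 and 114 in *loj* abdomen, where the background level was lower. The part of that lower level in the counts was not tested. Over all probe sets the corresponding shares were 38.8% in control head/thorax, 41.6% in *loj* head/thorax, 45.5% in control abdomen and 48.2% in *loj* abdomen. For 11 genes (*Akh*, *Mip*, *Crz*, *Dh31*, *FMRFa*, *sNPF*, *Pdf*, *Lk*, *Nplp1*, *Nplp3* and *Proc*) all 6 head/thorax arrays and 0 of 6 abdomen arrays were above background. *AstC*, *Nplp2* and *Capa* were above it on all 12 arrays. *Burs*, *amn* and *Eh* were above it on none. Replicates were close where a gene was measured. The coefficient of variation over 3 arrays had a median of 7.23% over the 17 genes in control head/thorax and 7.41% over the 19 in *loj* head/thorax.

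**Figure D1:**
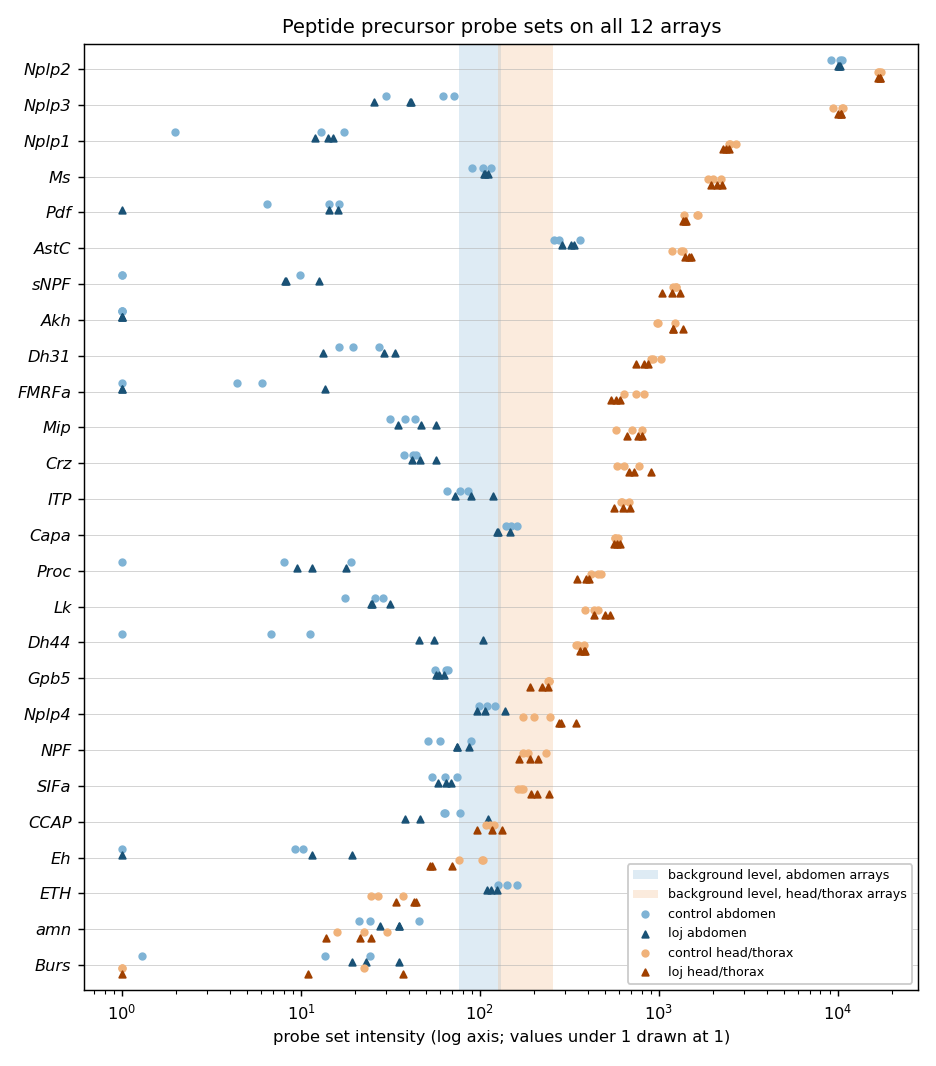
Intensity of each of the 26 precursor probe sets (rows) on all 12 arrays on a log axis, with values under 1 drawn at 1. Points are single arrays in 4 groups, and the bands span the background level over the 6 arrays of each tissue. In 22 rows all head/thorax points lie to the right of all abdomen points, and *ETH* is the only row with the reverse order.

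Tissues were compared within each genotype with limma on log2 intensities (3 arrays against 3, Benjamini-Hochberg adjustment over all probe sets), and a call needed both an adjusted p under 0.05 and a 1.5-fold difference. In controls 23 of the 26 precursor genes were higher in head/thorax and 1, *ETH*, was higher in abdomen, where 33.0% of all probe sets were called higher in head/thorax and 22.6% higher in abdomen. In *loj* females the counts were 22 and 1, against 34.3% and 21.3% of all probe sets. The median log2 difference of head/thorax minus abdomen was 4.09 over the precursor genes and 0.22 over all probe sets in controls, and 3.01 and 0.29 in *loj* females. These medians rest in part on abdomen values at background, on all 3 arrays for 20 of the 26 genes in controls and 16 in *loj*. With genes at background set at the bounds given below and genes that allow no fold (7 and 5) set at 0, they were 2.03 and 2.17. How arrays of the 2 tissues were scaled to each other is not given. Quantile normalization moved the median of all probe sets to -0.15 in controls and -0.11 in *loj*, and median centring moved it to -0.37 and -0.33. The share of all called probe sets that were higher in head/thorax then fell from 59.3% to 46.4% and 36.5% in controls and from 61.7% to 48.1% and 37.6% in *loj*, and the precursor genes called in both genotypes kept their direction. In dissected tissue a lower intensity from fewer peptide-making cells and one from less transcript per cell cannot be told apart. Where 1 or more of the 3 abdomen arrays of a group were at background, the fold is given as "at least", set against the background level, and otherwise it is the ratio of the measured levels.

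Hormones of energy balance and stress were detected in head/thorax alone. *Akh* encodes adipokinetic hormone, which the corpora cardiaca release to mobilise fat and sugar stores, and it read 1234, 979 and 985 in control head/thorax and 1357, 1192 and 1201 in *loj* head/thorax. Its abdomen values were below 0 on all 6 arrays, at -63.4, -72.9 and -93.5 in controls and -88.1, -96.1 and -95.5 in *loj*. The transcript thus lay far above background on every head/thorax array and on 0 abdomen arrays, at least 9.91-fold higher in control head/thorax (adjusted p = 1.6e-07) and at least 14.4-fold higher in *loj* head/thorax (adjusted p = 9.9e-08). *Crz* encodes corazonin, a stress hormone of brain neurosecretory cells, with 776, 643 and 585 in control head/thorax and 677, 722 and 899 in *loj* head/thorax. In abdomen it read 43.7, 37.6 and 42.5 in controls and 41.7, 46.2 and 56.7 in *loj*. The tissues did not overlap, and head/thorax was at least 6.20-fold higher in controls (adjusted p = 8.6e-07) and at least 8.75-fold higher in *loj* (adjusted p = 1.1e-06).

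Hormones of salt and water balance, which act on the Malpighian tubules or hindgut in the abdomen, were brighter in head/thorax too, and *Capa* was the one gene of this group above background on every abdomen array. *Dh31* encodes the calcitonin-like diuretic hormone and read 1022, 908 and 922 in control head/thorax and 744, 829.7 and 866 in *loj* head/thorax. In abdomen its values were 16.2, 19.6 and 27.3 in controls and 33.6, 29.2 and 13.3 in *loj*. All abdomen arrays were at background, and head/thorax was at least 8.88-fold higher in controls (adjusted p = 9.6e-07) and at least 9.34-fold in *loj* (adjusted p = 1.1e-05). *Dh44*, the gene for the diuretic hormone related to corticotropin-releasing factor, read 383, 351 and 345 in control head/thorax and 388, 382 and 362 in *loj* head/thorax. Abdomen values were -0.363, 6.81 and 11.3 in controls and 45.5, 104 and 55.3 in *loj*. The 3 *loj* abdomens were all above the 3 control abdomens, and 1 of them exceeded its background level, while all 6 abdomens stayed below every head/thorax array. Head/thorax was at least 3.36-fold higher in controls (adjusted p = 4.4e-04) and at least 3.96-fold higher in *loj* (adjusted p = 2.0e-04).

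Leucokinin, the product of *Lk* that stimulates fluid secretion by the tubules, had precursor intensities of 434, 388 and 457 in control head/thorax and 501, 530.5 and 432 in *loj* head/thorax. Abdomen arrays gave 28.9, 17.7 and 25.8 in controls and 24.9, 31.4 and 24.7 in *loj*. These lay at the level of the bacterial controls, so head/thorax was at least 3.98-fold higher in controls (adjusted p = 3.5e-06) and at least 5.59-fold in *loj* (adjusted p = 8.0e-07). *Capa* encodes the CAPA peptides, which are released from neurosecretory cells of the nerve cord and act on the tubules, and it read 589.5, 569.9 and 572 in control head/thorax and 561, 603 and 581 in *loj* head/thorax. Its abdomen values were 161, 141 and 149 in controls and 125, 147 and 127 in *loj*. All 12 arrays were above background and the tissues were separate, with head/thorax 3.84-fold higher in controls (adjusted p = 2.2e-06) and 4.39-fold higher in *loj* (adjusted p = 1.8e-06).

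*ITP*, which encodes ion transport peptide, an antidiuretic hormone, read 617, 678 and 623 in control head/thorax and 689, 628 and 563 in *loj* head/thorax. In abdomen the values were 77.4, 85.5 and 65.4 in controls and 119, 89.3 and 72.9 in *loj*, of which 0 control and 2 *loj* arrays were above background. Head/thorax was at least 5.98-fold higher in controls (adjusted p = 1.4e-06) and at least 5.96-fold higher in *loj* (adjusted p = 1.2e-05), without overlap. *Gpb5* encodes the beta subunit of the glycoprotein hormone thyrostimulin, whose alpha subunit gene *Gpa2* was not matched, and it read 241, 242 and 244 in control head/thorax and 223, 239.8 and 189.7 in *loj* head/thorax. Abdomen values were 65, 56.2 and 66.4 in controls and 63.1, 59.3 and 56.6 in *loj*. Only 4 of the 6 head/thorax arrays (2 of each genotype) and 0 abdomen arrays were above background, yet the tissues did not overlap (at least 2.27-fold in controls, adjusted p = 9.4e-06, and at least 2.49-fold in *loj*, adjusted p = 2.2e-05).

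Among the peptides of feeding and metabolism, the precursor of short neuropeptide F, *sNPF*, which promotes feeding and growth, read 1254, 1193 and 1248 in control head/thorax and 1179.8, 1042 and 1311 in *loj* head/thorax. In abdomen it was near 0, at 9.81, -0.506 and 0.167 in controls and 8.27, 8.16 and 12.6 in *loj*. This gave a difference of at least 11.5-fold in controls (adjusted p = 7.4e-05) and at least 13.5-fold in *loj* (adjusted p = 3.4e-07). *NPF*, the neuropeptide F gene, which is used in brain neurons and in midgut endocrine cells, was much closer to background and read 235, 175 and 185 in control head/thorax and 164, 191 and 211 in *loj* head/thorax. Abdomen values were 59.5, 89.5 and 51.1 in controls and 86.4, 74.1 and 74.8 in *loj*. Of these, 1 control and 2 *loj* head/thorax arrays and 1 *loj* abdomen array were above background, and the tissues did not overlap (at least 1.84-fold in controls, adjusted p = 8.5e-04, and at least 2.08-fold in *loj*, adjusted p = 2.1e-04).

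Among the peptides that act on visceral muscle and heart, the precursors *AstC* and *Ms* were above background in abdomen, *AstC* on every array. *AstC* encodes allatostatin C, named for its inhibition of juvenile hormone synthesis in moths and made in the brain and the midgut, and it read 1365, 1326 and 1182 in control head/thorax and 1478, 1505 and 1395 in *loj* head/thorax. Abdomen arrays gave 364, 258 and 278 in controls and 336, 325 and 288 in *loj*. All 6 abdomens were above background, and head/thorax was 4.34-fold higher in controls (adjusted p = 1.2e-05) and 4.63-fold higher in *loj* (adjusted p = 6.5e-07). *Ms*, the myosuppressin gene, whose peptide slows heart and crop contraction, read 2236, 2009 and 1875 in control head/thorax and 2249, 1957 and 2102 in *loj* head/thorax. In abdomen it was 104, 90.0 and 116 in controls and 106, 107 and 111 in *loj*. These abdomen values straddled the background level, with 1 control and 3 *loj* arrays above it, and head/thorax was at least 18.9-fold higher in controls (adjusted p = 3.6e-07) and 19.4-fold higher in *loj* (adjusted p = 6.7e-08). *Mip* encodes the myoinhibiting peptides, which relax visceral muscle and also bind the sex peptide receptor, and it read 809, 710.0 and 574 in control head/thorax and 769, 661 and 802 in *loj* head/thorax. Its abdomen values were 43.4, 31.5 and 38.1 in controls and 56.5, 34.8 and 46.6 in *loj*. No abdomen array was above background, and head/thorax was at least 6.46-fold higher in controls (adjusted p = 1.7e-06) and at least 8.53-fold in *loj* (adjusted p = 2.2e-06).

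*FMRFa*, which encodes FMRFamide-related peptides that strengthen muscle contraction, read 823, 744 and 635 in control head/thorax and 577, 542 and 608 in *loj* head/thorax. Abdomen arrays gave -0.136, 4.37 and 6.06 in controls and 13.6, -0.963 and -0.875 in *loj*. With abdomen close to 0, head/thorax was at least 6.83-fold higher in controls (adjusted p = 3.5e-05) and at least 6.62-fold in *loj* (adjusted p = 3.1e-04). *Proc*, the proctolin gene, which encodes a stimulator of muscle contraction, read 457, 476 and 415 in control head/thorax and 409.6, 394 and 348 in *loj* head/thorax. Its abdomen intensities were 19, -1.13 and 8.05 in controls and 17.7, 9.50 and 11.5 in *loj*. The 2 tissues were again separate, by at least 4.20-fold in controls (adjusted p = 0.00102) and at least 4.41-fold in *loj* (adjusted p = 3.5e-06).

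Peptides of the brain's clock and arousal neurons were measured at head/thorax levels of very different clarity. *Pdf* encodes pigment-dispersing factor, the output signal of clock neurons, and read 1643, 1384 and 1663 in control head/thorax and 1393, 1369 and 1411 in *loj* head/thorax. In abdomen the values were 16.3, 6.48 and 14.4 in controls and -3.79, 16 and 14.3 in *loj*. No abdomen array was above background, and head/thorax was at least 14.6-fold higher in controls (adjusted p = 3.1e-06) and at least 16-fold in *loj* (adjusted p = 3.8e-04). *SIFa*, the SIFamide gene of a few brain neurons, read 164, 169 and 173 in control head/thorax and 193, 208 and 243 in *loj* head/thorax. Abdomen values were 63.7, 53.9 and 74.9 in controls and 58.3, 69.2 and 64.6 in *loj*. All 3 *loj* but 0 control head/thorax arrays were above background. The tissues were called different on the measured values in controls (adjusted p = 1.9e-04), for which no fold is given, and head/thorax was at least 2.46-fold higher in *loj* (adjusted p = 3.7e-05). *amn* (amnesiac), known for its part in memory, read 13.9 to 45.7 over the 12 arrays and was above background on none, and its tissues were not called different in either genotype.

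The neuropeptide-like precursor genes *Nplp1* to *Nplp4*, which were named from peptides found in fly tissue and whose functions are mostly unknown, did not share a pattern. *Nplp3* read 10699.7, 9351 and 10542 in control head/thorax and 10025, 10389 and 10489 in *loj* head/thorax. Its abdomen values were 61.9, 29.9 and 71.3 in controls and 41.3, 40.5 and 25.4 in *loj*. At least 95.2-fold in controls (adjusted p = 1.4e-06) and at least 119-fold in *loj* (adjusted p = 1.2e-07) separated the tissues, the largest bounds among the 26 genes. *Nplp1*, a gene of the nervous system, read 2488, 2452 and 2682 in control head/thorax and 2467, 2297 and 2381 in *loj* head/thorax. Abdomen arrays gave 13, 1.98 and 17.4 in controls and 14.2, 15.2 and 12 in *loj*. All 6 abdomens were at background, at least 23.7-fold below head/thorax in controls (adjusted p = 6.4e-05) and at least 27.4-fold in *loj* (adjusted p = 4.3e-08).

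*Nplp2* was bright everywhere, with 16776, 17332 and 17061 in control head/thorax and 17213, 17271 and 16883 in *loj* head/thorax. Abdomen values were 10495, 9112 and 10224 in controls and 10128, 9985 and 10248 in *loj*. Head/thorax was 1.72-fold higher in controls (adjusted p = 3.9e-05) and 1.69-fold higher in *loj* (adjusted p = 4.8e-06). The head/thorax values lie near the highest intensity of any probe set on those arrays, 17735 to 17992, and the call depended on the scaling, since the log2 difference fell to 0.19 in controls and 0.14 in *loj* with median centring, under the fold threshold. *Nplp4* read 174, 202 and 246 in control head/thorax and 277, 283 and 345 in *loj* head/thorax. In abdomen it was 109.6, 99.2 and 121 in controls and 106, 95.7 and 139 in *loj*. Here 2 control and 3 *loj* abdomens but only the 3 *loj* head/thorax arrays exceeded their own array's background level, which is lower on abdomen arrays. The tissues were called different on the measured values in controls (adjusted p = 0.00217, no fold), though not after quantile normalization or median centring, and head/thorax was 2.68-fold higher in *loj* (adjusted p = 2.5e-04). A probe set shared by *Nplp4* and *CG4238*, left out by the rule, read 71.2 to 105 in *loj* abdomen and 100 to 134 in *loj* head/thorax. In controls it read 83.2 to 95.9 and 79.2 to 146. Which gene gave its signal was not tested.

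The ecdysis peptides, which drive the shedding of the cuticle and the hardening of the new one, were at or near background in these adults, and *ETH* was the one precursor higher in abdomen. *ETH* encodes ecdysis triggering hormone, made by Inka cells attached to the tracheae, and its abdomen values were 142, 162 and 126 in controls and 115, 125 and 110.2 in *loj*. In head/thorax they were 27.1, 37.4 and 24.8 in controls and 43, 44.2 and 34 in *loj*. Of the abdomen arrays 2 control and 3 *loj* were above background, 0 head/thorax arrays were, and the tissues did not overlap. The difference was called in both genotypes (adjusted p = 7.8e-05 in controls and 2.2e-04 in *loj*), but no fold is given, because the abdomen signal is no higher than the background level of the head/thorax arrays. *Eh*, the eclosion hormone gene of brain neurosecretory neurons, read 76.4, 103 and 104 in control head/thorax and 52.6, 54 and 69.9 in *loj* head/thorax. Its abdomen intensities were -5.65, 9.25 and 10.3 in controls and 19.4, -6.77 and 11.6 in *loj*. Although 0 of the 12 were above background, head/thorax was higher on the measured values (adjusted p = 0.00417 in controls and 0.0309 in *loj*), and in *loj* this call was lost without any one of the 3 *loj* head/thorax arrays. *CCAP*, for crustacean cardioactive peptide, which also speeds the heart, read 114, 121 and 108 in control head/thorax and 96.5, 117 and 132 in *loj* head/thorax. Abdomen values were 63.1, 63.5 and 77.6 in controls and 38.4, 110.4 and 46.3 in *loj*. Only 1 *loj* abdomen array was above background, and the tissues were called different in controls (adjusted p = 0.00378) and not in *loj* (adjusted p = 0.0686), a difference between genotypes that did not pass its own test (adjusted p = 0.929 for the interaction). The call in controls was lost with quantile normalization (log2 0.17, adjusted p = 0.376), median centring (0.16, adjusted p = 0.420), 32 added before log2, all 12 arrays in 1 fit (adjusted p = 0.0581) and the study's thresholds. *Burs*, a subunit of the tanning hormone bursicon, ranged from -8.55 to 37.3 over the 12 arrays, all at background.

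**Figure D2:**
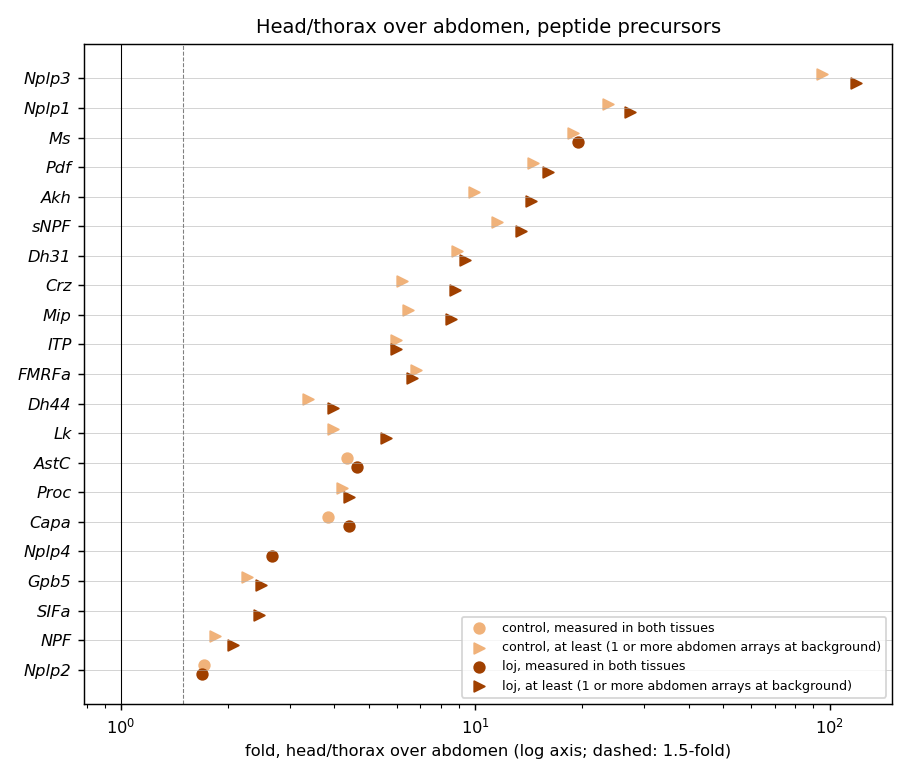
Fold of head/thorax over abdomen on a log axis for the precursor genes (rows) that allow one, in control (light) and *loj* (dark). Circles are ratios of measured levels and triangles are lower bounds where 1 or more abdomen arrays were at background, and the values run from 1.69 for *Nplp2* to at least 119 for *Nplp3*. *ETH*, *Eh*, *CCAP*, *Burs* and *amn* have no fold, and *SIFa* and *Nplp4* have one in *loj* only.

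In abdomen, *loj* and control females were compared next, the question of the study being which transcripts change when *loj* is lost. By limma 0 of the 26 precursor genes were called, against 0.874% of all probe sets, and 1, *Dh44*, had an unadjusted p under 0.05, against 13.9%. Its 3 *loj* abdomens (45.5 to 104) did not overlap the 3 control abdomens (-0.363 to 11.3), with a log2 difference of 3.91 (standard error 0.95) on values of which only 1 was above background, and an adjusted p of 0.142. With all 12 arrays in 1 fit, or with a test styled on the study's Cyber-T method, *Dh44* was called (adjusted p = 0.00895 and 0.0417), and no other precursor gene was. Groups did not overlap for 2 genes, *Dh44* and *ETH* (log2 difference -0.29, adjusted p = 0.399), against 19.5% of all probe sets. The median log2 difference of *loj* minus control was 0.14 over the 26 genes. For the 3 genes above background in both abdomen groups, the differences were 0.09 for *AstC* (95% interval -0.27 to 0.45), 0.03 for *Nplp2* (-0.17 to 0.22) and -0.18 for *Capa* (-0.45 to 0.09), so each interval lay within a 1.5-fold change.

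In head/thorax 0 of the 26 precursor genes were called between *loj* and control by limma, against 1.86% of all probe sets, and 0 by the Cyber-T style test. At an unadjusted p under 0.05 there were 7, against 17.8% of all probe sets. Groups did not overlap for 8 genes, 3 higher and 5 lower in *loj*, against 23.8% of all probe sets, and the median log2 difference was 0.01. Of the 17 genes above background in both groups, differences ran from -0.34 for *FMRFa* to 0.24 for *Akh*. Their 95% intervals lay within a 1.5-fold change for 16 of the 17 and within a 2-fold change for all 17, and 13 covered 0. The exception was *FMRFa*, whose 3 *loj* arrays (542 to 608) lay below the 3 controls (635 to 823), with an interval of -0.60 to -0.09 and an adjusted p of 0.165. *Dh31* (-0.23, adjusted p = 0.206) and *Proc* (-0.23, adjusted p = 0.258) were also lower on all 3 *loj* arrays than on any control, as was *Gpb5* (-0.16, adjusted p = 0.493). *AstC* had the opposite order, at 0.18 (adjusted p = 0.238).

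Genes at or near background gave the remaining low p-values in head/thorax. *Nplp4* had a log2 difference of 0.55 (adjusted p = 0.142, the lowest of the 26) and *SIFa* one of 0.34 (adjusted p = 0.187). Both had all 3 *loj* arrays above all 3 controls. Both exceeded the background level in *loj* only, where that level was itself lower (126 to 236, against 206 to 256 in control). *Nplp4* in *loj* (277 to 345) lay above all the control levels as well, and *SIFa* in *loj* (193 to 243) did not. The part of that gap in the 2 detection counts was not tested. *Eh*, at background throughout, had a difference of -0.68 (adjusted p = 0.161). The change with *loj* was then tested for a difference between the tissues, as an interaction on all 12 arrays. No precursor gene of the 26 was called (0, against 0.506% of all probe sets), and 3 had an unadjusted p under 0.05, against 9.38%: *Dh44* (log2 -3.84, adjusted p = 0.157), *ETH* (0.74, adjusted p = 0.402) and *sNPF* (-2.22, adjusted p = 0.504). Without the first control abdomen array, *Dh44* and *sNPF* were called, and with 32 added before log2 *Dh44* was (log2 -1.30, adjusted p = 0.0324). The control abdomen values behind these differences were -0.363 to 11.3 for *Dh44* and -0.506 to 9.81 for *sNPF*, all at background.

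**Figure D3:**
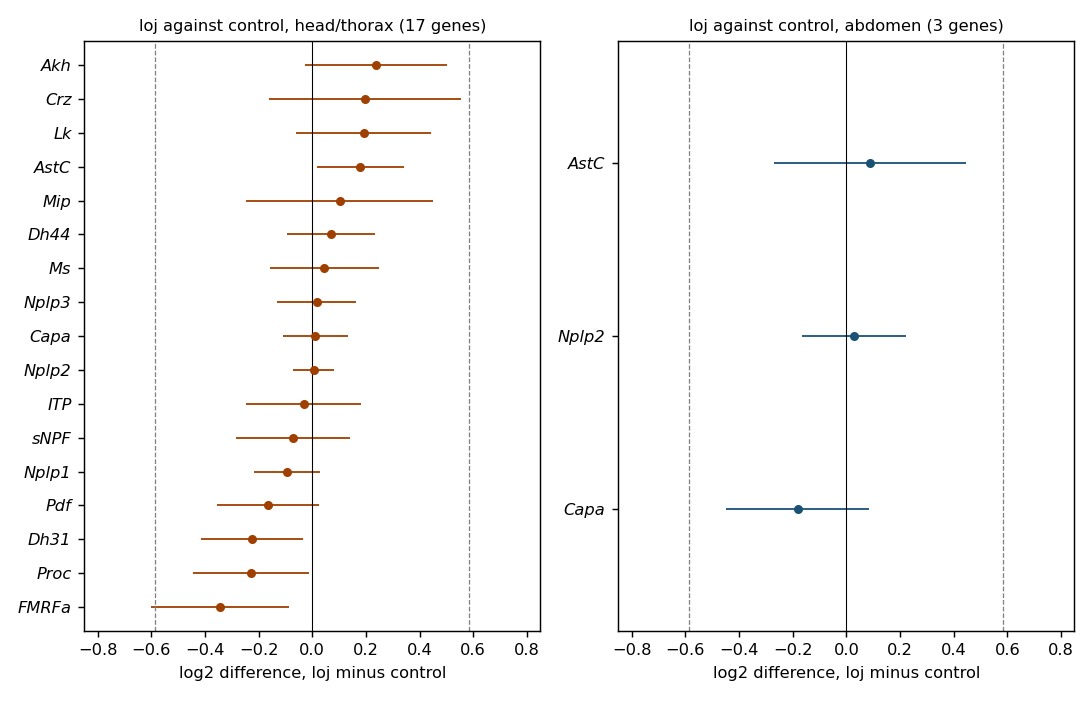
Log2 difference of *loj* minus control, with 95% intervals from limma, for the precursor genes above background on all 3 arrays of both groups, 17 in head/thorax and 3 in abdomen. The dashed lines mark a 1.5-fold change, which only the interval of *FMRFa* in head/thorax crosses.

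The same tissue comparison was made for genes that make, sense or destroy peptides, from lists drawn up from general knowledge. Of 11 processing and vesicle genes 10 were matched, and in controls 7 were higher in head/thorax, 1 was higher in abdomen and 2 were not called, with a median log2 difference of 2.57, where 33.0% and 22.6% of all probe sets were called in these directions. The prohormone convertase gene *amon* read 1515, 1484 and 1524 in control head/thorax and 10.3, 17.9 and 8.59 in control abdomen, at least 14.1-fold apart (adjusted p = 1.2e-06). Its helper gene *7B2* and the amidating lyase gene *Pal2* had the same pattern, at least 25.9-fold (adjusted p = 9.5e-07) and at least 13.8-fold (adjusted p = 1.9e-07). The dense core vesicle genes *IA-2* and *Cadps* were at least 25-fold (adjusted p = 3.0e-07) and at least 13.9-fold higher (adjusted p = 3.1e-07). Genes for the amidating enzymes *Phm* and *Pal1*, by contrast, were above background in abdomen as well and 2.47-fold (adjusted p = 9.9e-06) and 2.24-fold (adjusted p = 8.0e-05) higher in head/thorax. A second *Phm* probe set was not called (log2 0.05, adjusted p = 0.760). The furin gene *Fur2*, a convertase of the general secretory pathway, was 1.73-fold higher in abdomen (adjusted p = 2.9e-04), and *svr* (carboxypeptidase D) and *dimm* (a regulator of peptidergic cells) were not called. The 5 neprilysin genes, *Nep1* to *Nep5*, which encode peptide-degrading enzymes, were all called higher in head/thorax in both genotypes (33.0% of all probe sets in controls and 34.3% in *loj*), of which 3 were above background there on all control arrays.

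Fewer of the peptide receptor genes were above background. Of 37 listed receptor genes 21 were matched, and 5 of these were above background on all 3 control head/thorax arrays (*AkhR*, *SPR*, *Dh31-R*, *Dh44-R2* and *CCKLR-17D3*). In controls 17 were called higher in head/thorax and 0 higher in abdomen, with a median log2 difference of 1.65, against 33.0% and 22.6% of all probe sets. Of the 17, *AstC-R1*, *Dh44-R1*, *PK1-R*, *TkR86C*, *TkR99D*, *Lkr*, *SIFaR*, *rk*, *TrissinR* and *Lgr4* had 0 control arrays above background. The median rests in part on such values. Second probe sets of *SIFaR* (log2 -0.53, adjusted p = 0.0913), *TrissinR* (0.41, 0.191) and *CCAP-R* (1.10, 0.122) were not called in controls. Those of *AkhR*, *SPR*, *Dh31-R*, *Dh44-R2* and *Lgr4* were called higher in head/thorax. In *loj* 18 were called higher in head/thorax and 0 higher in abdomen, against 34.3% and 21.3%. With median centring the calls on *CCKLR-17D3* and *TrissinR* were lost in controls, those on *NPFR*, *Pdfr*, *rk*, *Lgr3*, *Lgr4* and *Phm* in *loj*, and those on *Nep1*, *Nep2*, *Nep5* and *Pal1* in both genotypes, while *CCAP-R* was called higher in *loj* abdomen (log2 -0.72, adjusted p = 0.0427). The receptor genes not called in controls were *Proc-R*, *NPFR*, *Lgr3* and *CCAP-R*. *AkhR*, the receptor for adipokinetic hormone, which is known from fat body, was called between *loj* and control in head/thorax. Of the 21 receptor, 10 processing and 5 neprilysin genes it was the only one called in the comparison of each tissue's 6 arrays. Of all probe sets 1.86% were called in head/thorax and 0.874% in abdomen. Alternatives called others. *Nep4* (log2 3.30, adjusted p = 0.00917) and *Dh44-R2* (-0.67, adjusted p = 0.0494) were called in abdomen with all 12 arrays in 1 fit. That fit called 1.63% of all probe sets higher and 0.602% lower in *loj* abdomen. *IA-2* was called in head/thorax after quantile normalization (-0.59, adjusted p = 0.0225) and without the first *loj* array (-0.61, adjusted p = 0.00993). These runs called 0.847% and 0.714% of all probe sets lower in *loj* head/thorax. *AkhR* read 2690.0, 2473 and 2559 in control head/thorax and 1466, 1151 and 1637 in *loj* head/thorax. All 3 *loj* arrays lay below the 3 controls, with a log2 difference of -0.87 (standard error 0.13, adjusted p = 0.0274), while its ligand gene *Akh* differed by 0.24 (95% interval -0.03 to 0.50). A second *AkhR* probe set was lower too, at least 1.87-fold (adjusted p = 0.0134). The call on the first was lost without the first *loj* array (adjusted p = 0.0547) or any one control array (0.0923 to 0.122), and with replicate number as a block (0.0650). In abdomen *AkhR* read 305, 226 and 355 in controls and 217, 195 and 263 in *loj* (adjusted p = 0.476). *SPR*, the sex peptide receptor, differed by 0.37 (adjusted p = 0.0240) and *IA-2* by -0.54 (adjusted p = 0.0238) in head/thorax, both under the fold threshold.

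**Figure D4:**
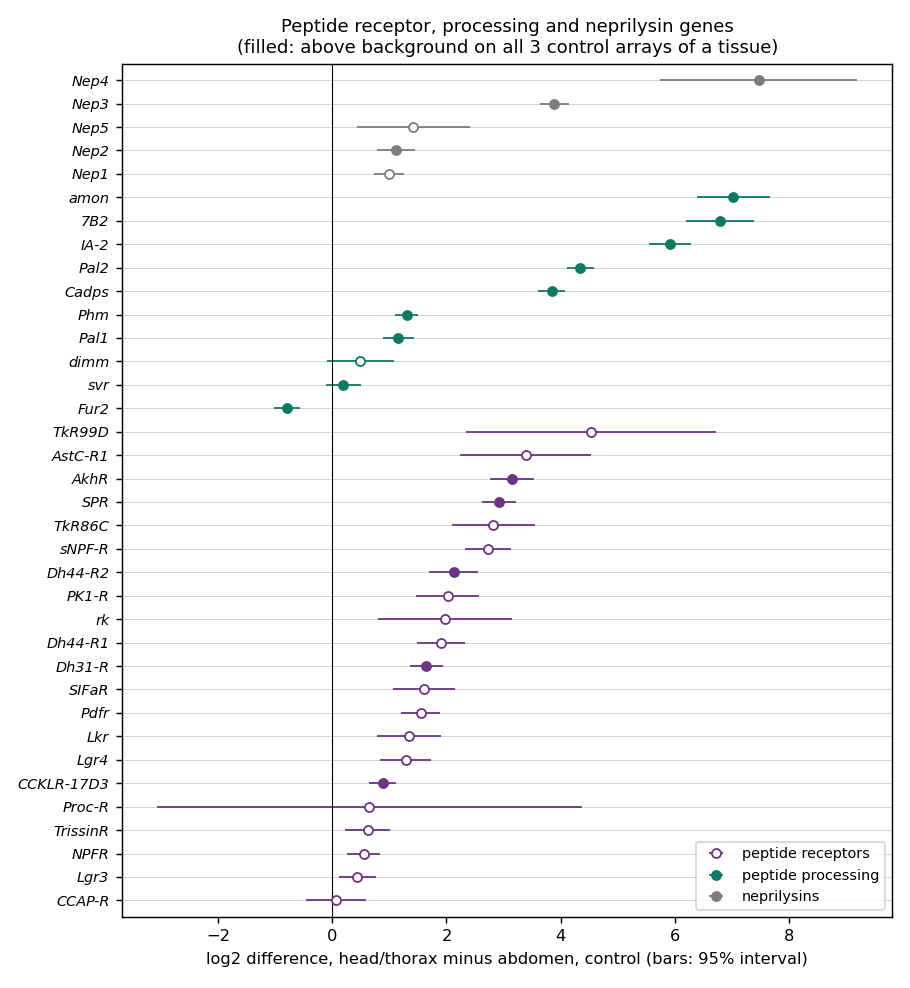
Log2 difference of head/thorax minus abdomen in controls, with 95% intervals from limma, for the 21 receptor, 10 processing and 5 neprilysin genes that were matched. Filled points were above background on all 3 control arrays of at least 1 tissue, and *Fur2* is the only filled point to the left of 0.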

How the data were processed

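RNA of 12 samples was measured on 1 array each. The authors derived dChip PM-MM, dChip PM and GCOS expression values, with GCOS 1.2 named in the processing notes of the submitters. It is not stated which of the 3 methods gave the deposited intensity values or how the arrays were scaled. These values are linear, 1 per probe set, and include 4546 below 0.

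Genes were named through the array annotation, in which 13647 probe sets have 1 symbol, 402 several and 4720 none, with synonyms of the reference gene table; a probe set shared by several genes was left out. The 183 array control probe sets were left out. Values under 1 were set to 1 (19 of the members' 312 values) and taken to log2. The 2 groups of each comparison were fitted with limma 3.58.1 in R 4.3.3 (empirical Bayes with an intensity trend), and the interaction with 4 group means on all 12 arrays, where a call needed only an adjusted p under 0.05. Every p in the text is from these fits or the named alternative, two-sided and, unless said to be unadjusted, adjusted by Benjamini-Hochberg over the 18769 probe sets. The script was tested on simulated data. The members, lists and tests were chosen with earlier results of these data known. All members with a probe set are named, with every array's value where a gene was called or above background on all 3 arrays of a group, and of the other lists called genes and the exceptions. A gene with several probe sets is counted by its brightest. Samples were separate RNA extractions, and 3 arrays per group limit the precision. Alternatives were median centring, quantile normalization, log2 of the value plus 32, only probe sets above the median intensity, replicate number as a block, 1 fit of all 12 arrays, the study's thresholds (an unadjusted p under 0.001 with 1.5-fold), a test styled on Cyber-T (confidence 10, window 101), leaving out each array, and 2 other background rules.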

Additional observations from a re-analysis of the deposited data

How the results depend on the processing

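For the precursor genes called between tissues, the direction held in every alternative run. Over pairs of a called gene and an alternative, the call was kept in 316 and lost in 9 in controls and kept in 304 and lost in 8 in *loj*. The losses in controls were *CCAP* (5 alternatives: both scalings, adding 32, all 12 arrays in 1 fit and the study's thresholds), *Nplp4* (both scalings), *Nplp2* (median centring) and *Eh* (the study's thresholds). In *loj* they were *Nplp2* (both scalings) and *Eh* (both scalings, the study's thresholds and each *loj* head/thorax array left out). Quantile normalization and median centring each gave 2 genes higher in *loj* abdomen, adding *amn* (log2 -1.25 and -1.38), which was at background on every array. With only probe sets above the median intensity, 13 genes could be tested in each genotype, of which 13 were higher in head/thorax and 0 in abdomen. That result is no check of direction, though its 13 genes are among the kept pairs counted above in each genotype. A gene low in abdomen could pass this filter only through its head/thorax arrays, and *ETH*, the gene higher in abdomen, did not pass it.

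Between *loj* and control in abdomen, 1 gene, *Dh44*, was called with all 12 arrays in 1 fit and by the Cyber-T style test, and the interaction gave 1, again *Dh44*, with 32 added before log2. Of all probe sets 1.63% were called higher in *loj* abdomen in the single fit and 2.29% by the Cyber-T style test. With 32 added, 0.437% were called lower in the interaction. Leaving out each array in turn gave 23 genes higher in head/thorax in controls and 21 to 23 in *loj*, 1 higher in abdomen in both, 0 called between *loj* and control in either tissue, and 0 to 2 in the interaction (*Dh44* and *sNPF* without control abdomen replicate 1). Of all probe sets these runs called at most 0.155% higher and 0.123% lower in *loj* abdomen. The highest shares were 1.39% and 0.714% in *loj* head/thorax and 0.405% and 0.320% in the interaction. With so few calls over all probe sets, the counts of 0 say little about these genes.

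With the highest bacterial control as the background level, the genes above it on all 3 arrays were 1 in control abdomen, 2 in *loj* abdomen, 9 in control head/thorax and 11 in *loj* head/thorax. Requiring only 2 of 3 arrays gave 5 in control abdomen.

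With replicate number as a block the counts were 23 and 1 between tissues in both genotypes and 0 in the other comparisons, and *AkhR* lost its call. Of all probe sets that fit called 0% higher and 0.00533% lower in *loj* abdomen, and 0.410% and 0.309% in *loj* head/thorax. In the interaction it called 0.165% in each direction. The labels do not say that the same numbers were collected together. Deviations from the group means correlated by -0.01 to 0.12 between same-numbered arrays over all probe sets. Over 5968 probe sets above background on all 12 arrays, they correlated by 0.26 to 0.46 between the tissues in *loj*, where other pairs reached at most -0.04, and by -0.07 to 0.42 in the other comparisons. Most abdomen values of these genes were at background, where differences are not measured reliably, and 3 arrays per group limit every test.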
